A study of Mus musculus with 9 samples.

Results

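The genes described here are 42 ribosome biogenesis factors, proteins that transcribe, modify, cut and assemble the ribosome in the nucleolus and carry its subunits to the cytoplasm. They were found by symbol from a list of genes of this pathway. All 42 were found among the 24054 genes of the expression tables, and all 42 were among the 14452 genes that passed the filter on low counts and were tested. They were grouped by role into 5 genes of RNA polymerase I transcription, 5 abundant nucleolar proteins, 3 proteins of the box C/D snoRNP, 4 proteins of the box H/ACA snoRNP, 13 factors of small subunit assembly and 12 factors of large subunit assembly.

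The study profiled type 2 dendritic cells (DC2) from mouse spleen by bulk RNA-seq, in 3 groups of 3 libraries. All mice were C57BL/6 animals of the genotype Clec9a-Cre/Cre Rosa-tdTomato/tdTomato, so Cre was carried on both Clec9a alleles in every group. Cells that descend from Clec9a-expressing dendritic cell precursors are labelled with TOMATO (TOM) in these mice, and the label can also be absent because recombination did not take place. Live single autofluorescence- MHCII+ CD11c+ CD11b+ cells were sorted as young TOM+ cDC2 and young TOM- DC2 at postnatal day 8, and as adult TOM+ cDC2 at 9 weeks (1 library) or 8 weeks (2 libraries). Spleens of young mice were pooled for sorting, and there was no adult TOM- group. Nothing in the labels ties a library to a single animal, so p-values measure only the spread between these libraries.

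A ribosome is made from a long precursor RNA that RNA polymerase I transcribes from the ribosomal DNA repeats. Small nucleolar RNPs (snoRNPs) of the box C/D kind add methyl groups to this RNA and those of the box H/ACA kind convert uridines to pseudouridines, while assembly factors fold and trim it into the small and the large subunit. The genes of this pathway are known as targets of MYC and are raised in growing and dividing cells.

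Reads counted in genes ranged from 12783252 to 22809401 per library, and the members received between 147 (Fbl) and 13321 (Ncl) of them in a single library. The sum of 14 genes that define cDC2 lay between 77100 and 86030 TPM (the RSEM transcript abundance, corrected for length and scaled to the same total in each library) in the 6 young libraries and between 123700 and 126600 TPM in the adult libraries. Most of this sum comes from Cd74 and the MHC class II genes H2-Ab1, H2-Aa and H2-Eb1. The cells were sorted on MHCII, so the sum cannot show by itself that they were cDC2. Young TOM- DC2 libraries held more RNA of some lists of markers of other cells, which does not show by itself that such cells were present. Other lists were not raised: monocyte and macrophage markers summed to 262.5 ± 21.8 TPM in young TOM- and 280.5 ± 14.7 TPM in young TOM+ libraries. The cDC1 markers summed to 26.8 ± 1.67 and 26.8 ± 1.32 TPM. Of 5 ILC3 markers, 2 were at 0 in every library, and the summed level of the list was 8.87 to 9.45 TPM in young TOM- DC2, against 3.15 to 4.18 TPM in young TOM+ cDC2 and 3.23 to 4.98 TPM in adult TOM+ cDC2. The rise lay in Il7r and Il1r1, while Thy1 was at most 0.24 TPM in any library. Young TOM- DC2 replicate 1 also stood apart by 645 TPM of 6 erythroid markers, against 1.17 to 40.5 TPM in the other 8 libraries, and by 17.3 TPM of neutrophil markers, against at most 0.94 TPM. In such bulk samples, fewer cells that express a gene and less RNA of it per cell cannot be told apart.

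Nucleophosmin, encoded by Npm1, was the most abundant member, and the members spanned a wide range of levels. In TPM, a unit per transcript length, Npm1 stood at 441 ± 24.4 in young TOM+ cDC2, 403 ± 25.9 in young TOM- DC2 and 259 ± 12.9 in adult TOM+ cDC2 (mean ± SD, n = 3 each, as for all levels below). Nop56, Fbl and Nop10 followed, at 203 ± 2.30, 218 ± 9.86 and 194 ± 19.8 TPM in young TOM+ cDC2. In adult TOM+ cDC2 these 3 genes, at 147 ± 10.9, 152 ± 14.8 and 142 ± 10.4 TPM, lay within the spread of one another. Nhp2 (148 ± 2.90 TPM in young TOM+ cDC2) and nucleolin, Ncl (127 ± 1.38 TPM), came next. The level of Ncl rests on a transcript model of 8257 bases in the tables. At the other end, Utp20 had 6.09 ± 1.22 TPM in young TOM+ cDC2 and 3.43 ± 0.216 TPM in adult TOM+ cDC2, and Noc3l had 7.01 ± 1.10 and 6.29 ± 1.06 TPM.

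Summed over the 42 genes, the young cells held more of the transcript pool in these factors than the adult cells. The sums were 2957, 3014 and 2880 TPM in young TOM+ cDC2, 2808, 2816 and 2731 TPM in young TOM- DC2, and 2089, 1976 and 2039 TPM in adult TOM+ cDC2. In these sums no library of one group reached into the range of another. The order was the same without Npm1, at 2453 to 2545, 2352 to 2408 and 1729 to 1816 TPM. The mean log2(TPM + 1) of the 42 genes gave 5.56 ± 0.04, 5.496 ± 0.04 and 5.06 ± 0.04 in the same order. By this mean the young groups overlapped, as young TOM+ replicate 3 (5.521) lay below young TOM- replicate 1 (5.542). These sums and means are descriptions with no test.

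**Figure D1:**
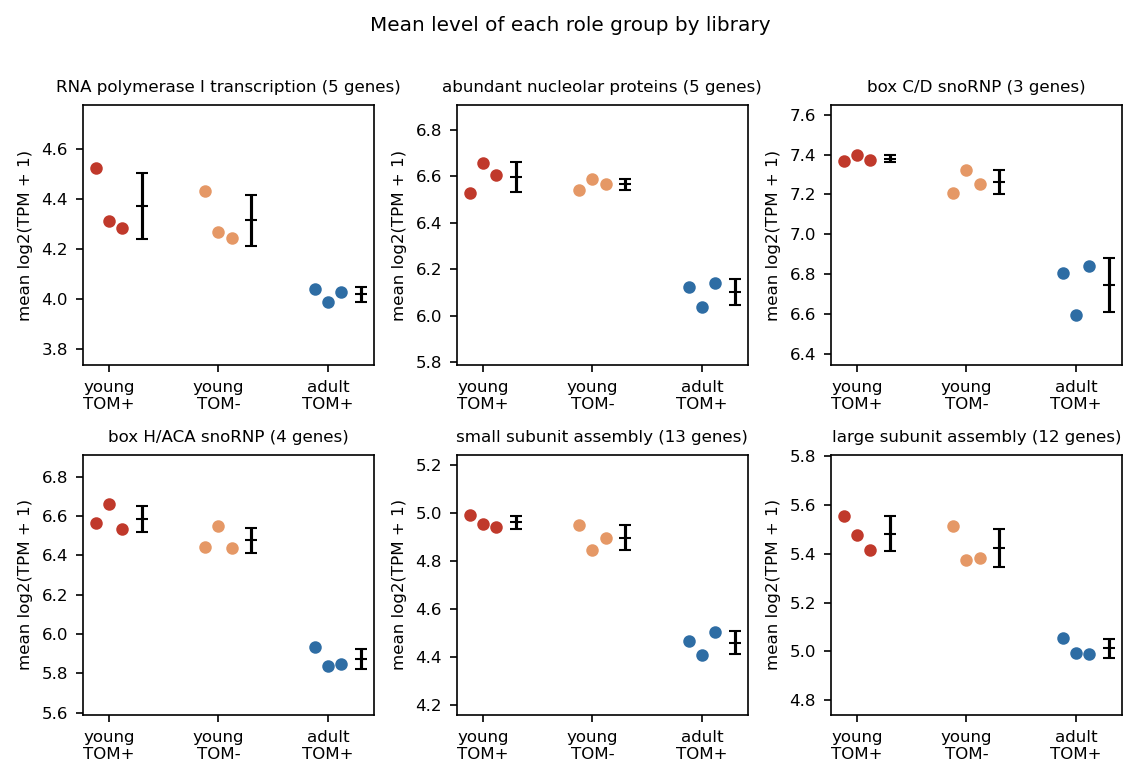
Mean log2(TPM + 1) over the genes of each role, 1 point per library, for young TOM+ cDC2, young TOM- DC2 and adult TOM+ cDC2. Bars beside the points give the mean and SD of 3 libraries, and the vertical axes do not start at 0. In all 6 panels the 3 adult libraries lay below the 6 young libraries, as for the box H/ACA snoRNP, with 5.84 to 5.93 in adult against 6.44 to 6.66 in young libraries.

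The first comparison asked how cDC2 of the same label differ between early life and adulthood. Of the 42 members, 26 were higher in young TOM+ cDC2 than in adult TOM+ cDC2 and 0 were lower, by edgeR's quasi-likelihood test at an adjusted p under 0.05 over all genes tested. Of all 14452 genes tested, 21% were higher and 19.5% were lower by the same rule. No member was called lower by DESeq2 either, and 0 had a lower value at an unadjusted p under 0.05. All changes of members were below 2-fold: 0 passed the additional condition of a log2 fold change (log2FC) beyond 1, which 12.8% of all genes met, and DESeq2 gave 0 as well. The median log2FC of the members was 0.35, against 0.05 for all genes, and 40 of 42 values were above 0. In 35 members all 3 young TOM+ libraries lay above all 3 adult libraries, a pattern found in 27.1% of all genes.

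These values depend on the scaling of the libraries. With library totals in place of TMM factors, the median of all genes moved from 0.05 to 0.25 and the share of calls that were higher moved from 51.9% to 72.4%. With these totals 38 members were higher and 0 lower, where 33.1% of all genes were higher. The age groups also differed in the reads behind these values: 10.4% to 10.9% of reads mapped to several places in the adult libraries against 12.7% to 13.4% in the 6 young libraries, 15.2% to 17.1% against 8.84% to 12.8% fell outside genes, and the TMM factors were 0.89 to 0.93 against 1.03 to 1.09. The part of these measures in the members' values was not tested. Relative to the median of all genes, the members' median was 0.30 with either scaling. A change of scaling moves all genes by nearly the same amount, so this difference was bound to stay and tests nothing. Values per library are given below in CPM, a gene's read count relative to the TMM-scaled total of its library, which can be compared between libraries but not between genes.

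**Figure D2:**
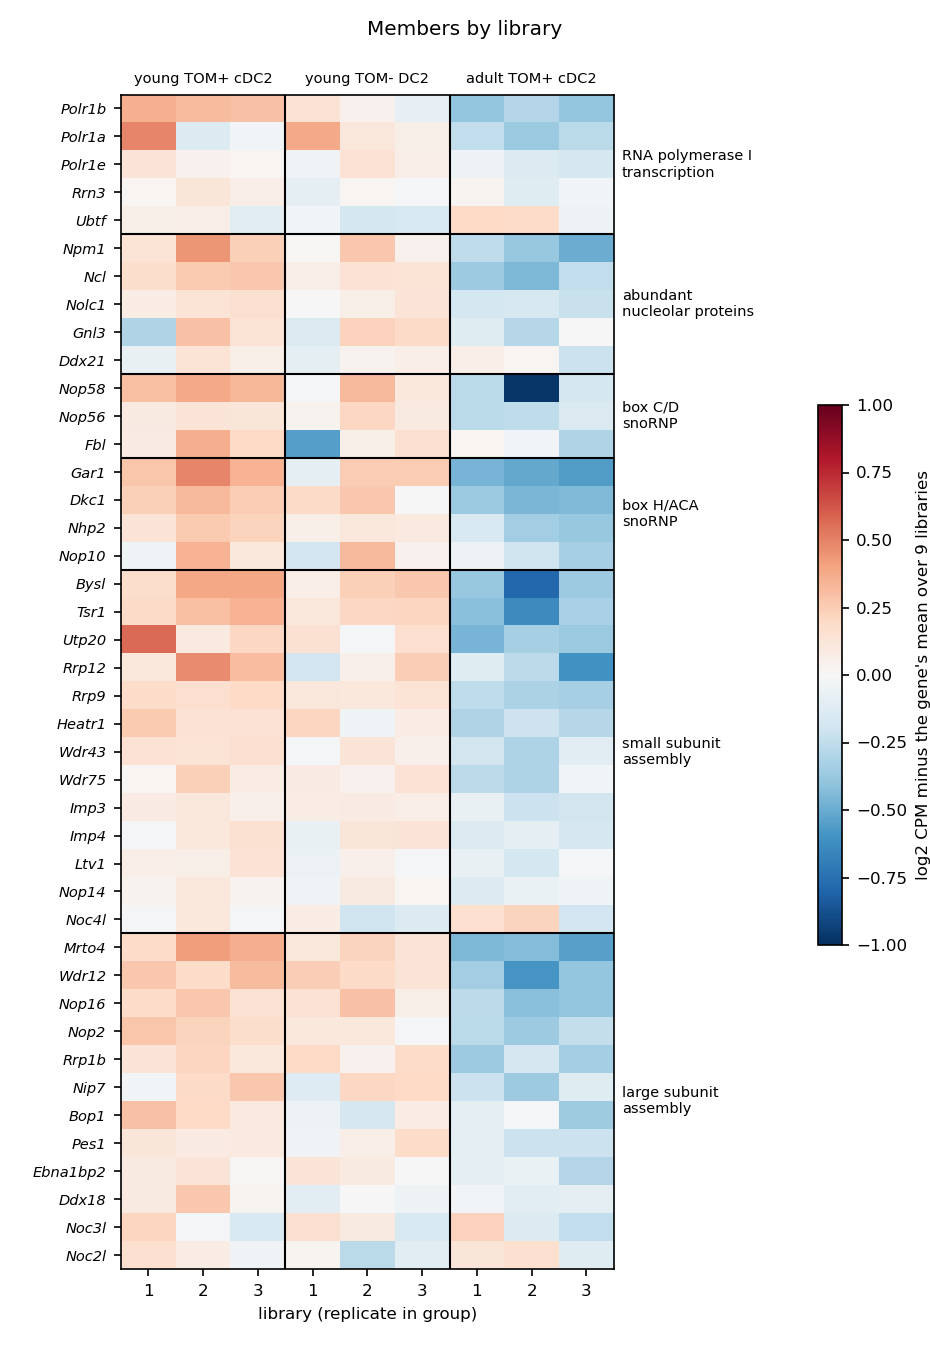
Level of each of the 42 members (rows, grouped by role) in each of the 9 libraries (columns), as log2 CPM minus the gene's mean over the 9 libraries, in colour. The adult columns are low for most rows, and Ubtf, Noc4l and Noc3l are rows in which adult replicate 1 lies above every young library.

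In RNA polymerase I transcription, 2 of 5 members were higher in young TOM+ cDC2. Polr1b, which encodes a catalytic subunit of the polymerase, had 34.2, 33.2 and 32.8 CPM in young TOM+ cDC2, 29.6, 27.6 and 25.2 CPM in young TOM- DC2, and 20.4, 21.9 and 20.4 CPM in adult TOM+ cDC2. All 3 groups were separate. The log2FC of young over adult TOM+ was 0.68 (SE 0.10, adjusted p = 0.000152, edgeR). Polr1a, which encodes the largest subunit, had 58.7, 38.0 and 40.9 CPM in young TOM+ cDC2 against 35.1, 32.3 and 34.7 CPM in adult TOM+ cDC2. Replicate 1 was far above the other 2 young TOM+ libraries, and young TOM- replicate 1, at 54.3 CPM, was the highest of its group too. Its log2FC was 0.43 (SE 0.15, adjusted p = 0.0401, edgeR), and the call was lost in 11 of 19 alternative analyses. Without young TOM+ replicate 1 the log2FC was 0.21 (adjusted p = 0.18, edgeR). The 3 other members act around the polymerase, and none passed the test: Polr1e, an associated subunit, had a log2FC of 0.18, Rrn3, which brings the polymerase to its promoter, 0.11, and Ubtf, which binds the ribosomal DNA itself, -0.10. Ubtf was the member with the highest level of this group, at 51.6 ± 4.66 TPM in young TOM+ cDC2 and 50.8 ± 3.40 TPM in adult TOM+ cDC2. Its CPM of 146, 147 and 131 in young TOM+ and 161, 159 and 136 in adult TOM+ libraries overlapped.

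Of the abundant nucleolar proteins, 3 of 5 were higher in young TOM+ cDC2. Npm1, a chaperone of ribosomal proteins and histones, had 104, 129 and 112 CPM in young TOM+ cDC2 against 79.3, 72.8 and 67.0 CPM in adult TOM+ cDC2, with no overlap. The log2FC was 0.65 (SE 0.11, adjusted p = 0.000443, edgeR). Ncl, which binds the precursor RNA, had 581, 615 and 619 CPM against 399, 376 and 433 CPM, a log2FC of 0.59 (SE 0.08, adjusted p = 0.000107, edgeR). Nolc1, a chaperone of snoRNPs, changed less, with 152, 159 and 162 CPM against 128, 129 and 123 CPM and a log2FC of 0.31 (SE 0.07, adjusted p = 0.00506, edgeR). Gnl3 (nucleostemin) and the RNA helicase Ddx21 did not pass, at log2FC of 0.20 and 0.08. Gnl3 varied widely between young TOM+ libraries, at 49.2, 74.3 and 66.7 CPM.

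Proteins of both snoRNP classes were higher in young TOM+ cDC2, 2 of 3 for box C/D and 3 of 4 for box H/ACA. Gar1, a core protein of the H/ACA particle, had the largest log2FC of all 42 members. It stood at 43.6, 50.4 and 45.9 CPM in young TOM+ cDC2 and at 26.1, 25.3 and 24.4 CPM in adult TOM+ cDC2, a log2FC of 0.88 (SE 0.11, adjusted p = 6.22e-05, edgeR), or 1.84-fold. Dkc1, the pseudouridine synthase dyskerin, followed at 0.69 (SE 0.09, adjusted p = 7.21e-05, edgeR) and Nhp2 at 0.49 (SE 0.09, adjusted p = 0.000669, edgeR). Nop10 had a log2FC of 0.34 and an adjusted p of 0.0733 by edgeR, with 57.3, 75.3 and 63.8 CPM in young TOM+ libraries and 57.1, 51.5 and 46.9 CPM in adult libraries, which lay just below. Of the box C/D particle, the scaffold proteins Nop58 and Nop56 were higher, at log2FC of 0.77 (SE 0.17, adjusted p = 0.00288, edgeR) and 0.34 (SE 0.08, adjusted p = 0.00449, edgeR). Nop58 had 119, 125 and 121 CPM in young TOM+ cDC2 and 79.9, 49.1 and 85.4 CPM in adult TOM+ cDC2, where replicate 2 was the lowest.

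The methyltransferase of the box C/D particle, Fbl (fibrillarin), shows how the counting rule enters these values. The counts tested here drop reads that map to several places and reads that are ambiguous between genes. The expected counts of RSEM share out reads with several matches. For Fbl the counts kept were 11.6% of the expected counts, for Ddx18 30.8%, for Npm1 32.8% and for Tsr1 57.3%. Pes1, Nop56, Mrto4 and Wdr12 followed, at 68.88% to 77.55%. The counts of these genes are less certain than those of members that kept more. The counts of Fbl were 14.8, 17.9 and 16.0 CPM in young TOM+ and 14.1, 13.6 and 11.3 CPM in adult TOM+ libraries, a log2FC of 0.32 that did not pass (adjusted p = 0.17, edgeR). With expected counts, the log2FC was 0.36 (SE 0.10) and passed (adjusted p = 0.0161, edgeR). Npm1 kept its call with expected counts, at 0.61 (SE 0.09, adjusted p = 0.000288, edgeR), and Ddx18 remained without one, at 0.07 (adjusted p = 0.52, edgeR). As many members, 26, were higher with expected counts as with the counts. Of all genes, 20% were higher with expected counts.

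Among the factors of small subunit assembly, 8 of 13 were higher in young TOM+ cDC2. Bysl (bystin), which accompanies the small subunit precursor out of the nucleolus, had 38.2, 44.2 and 44.4 CPM in young TOM+ cDC2 against 26.1, 19.7 and 26.3 CPM in adult TOM+ cDC2. The groups did not overlap, and the log2FC was 0.81 (SE 0.12, adjusted p = 0.000247, edgeR). Tsr1 and Rrp12, which act late in the maturation of this precursor, were higher by log2FC of 0.73 and 0.63. Utp20 (0.70), Heatr1 (0.45), Wdr43 (0.35) and Wdr75 (0.30) of the early processing complex and Rrp9 (0.48), a protein of the snoRNP at the start of this pathway, were higher as well. Wdr75 was among the 3 lowest log2FC called, with 35.4, 41.2 and 36.8 CPM against 29.1, 28.3 and 34.4 CPM (SE 0.10, adjusted p = 0.0359, edgeR), and the call was lost in 6 of 19 alternative analyses. The 5 members that did not pass were Imp3 (0.23), Imp4 (0.22), Ltv1 (0.18), Nop14 (0.15) and Noc4l (-0.06). Imp4, a partner of the early snoRNP, was the most abundant of the 13 at 79.1 ± 1.56 TPM in young TOM+ and 62.2 ± 1.16 TPM in adult TOM+ cDC2, and its adjusted p was 0.0541 (edgeR).

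Of the factors of large subunit assembly, 8 of 12 were higher in young TOM+ cDC2. Mrto4, which holds the place of a stalk protein on the large subunit precursor, had 35.0, 41.1 and 39.6 CPM in young TOM+ cDC2 and 22.5, 22.8 and 21.1 CPM in adult TOM+ cDC2. Its log2FC of 0.80 (SE 0.10) had the lowest adjusted p of all members, 4.37e-05 by edgeR. The 3 proteins of one complex, Pes1, Bop1 and Wdr12, differed in size of change, at log2FC of 0.27, 0.35 and 0.69. Pes1 was the lowest log2FC called in this comparison, with 109, 106 and 107 CPM against 93.6, 86.3 and 86.4 CPM (SE 0.08, adjusted p = 0.0179, edgeR). Nop16 (0.56), the RNA methyltransferase Nop2 (0.51), Rrp1b (0.44) and Nip7 (0.38) were higher too. Noc2l, the most abundant member of the 12, had 112 ± 10.2 TPM in young TOM+ and 102 ± 7.21 TPM in adult TOM+ cDC2 and a log2FC of 0.01 (95% interval -0.22 to 0.23). Its partner Noc3l stood at 0.06, the helicase Ddx18 at 0.21 and Ebna1bp2 at 0.23, and none of these passed.

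**Figure D3:**
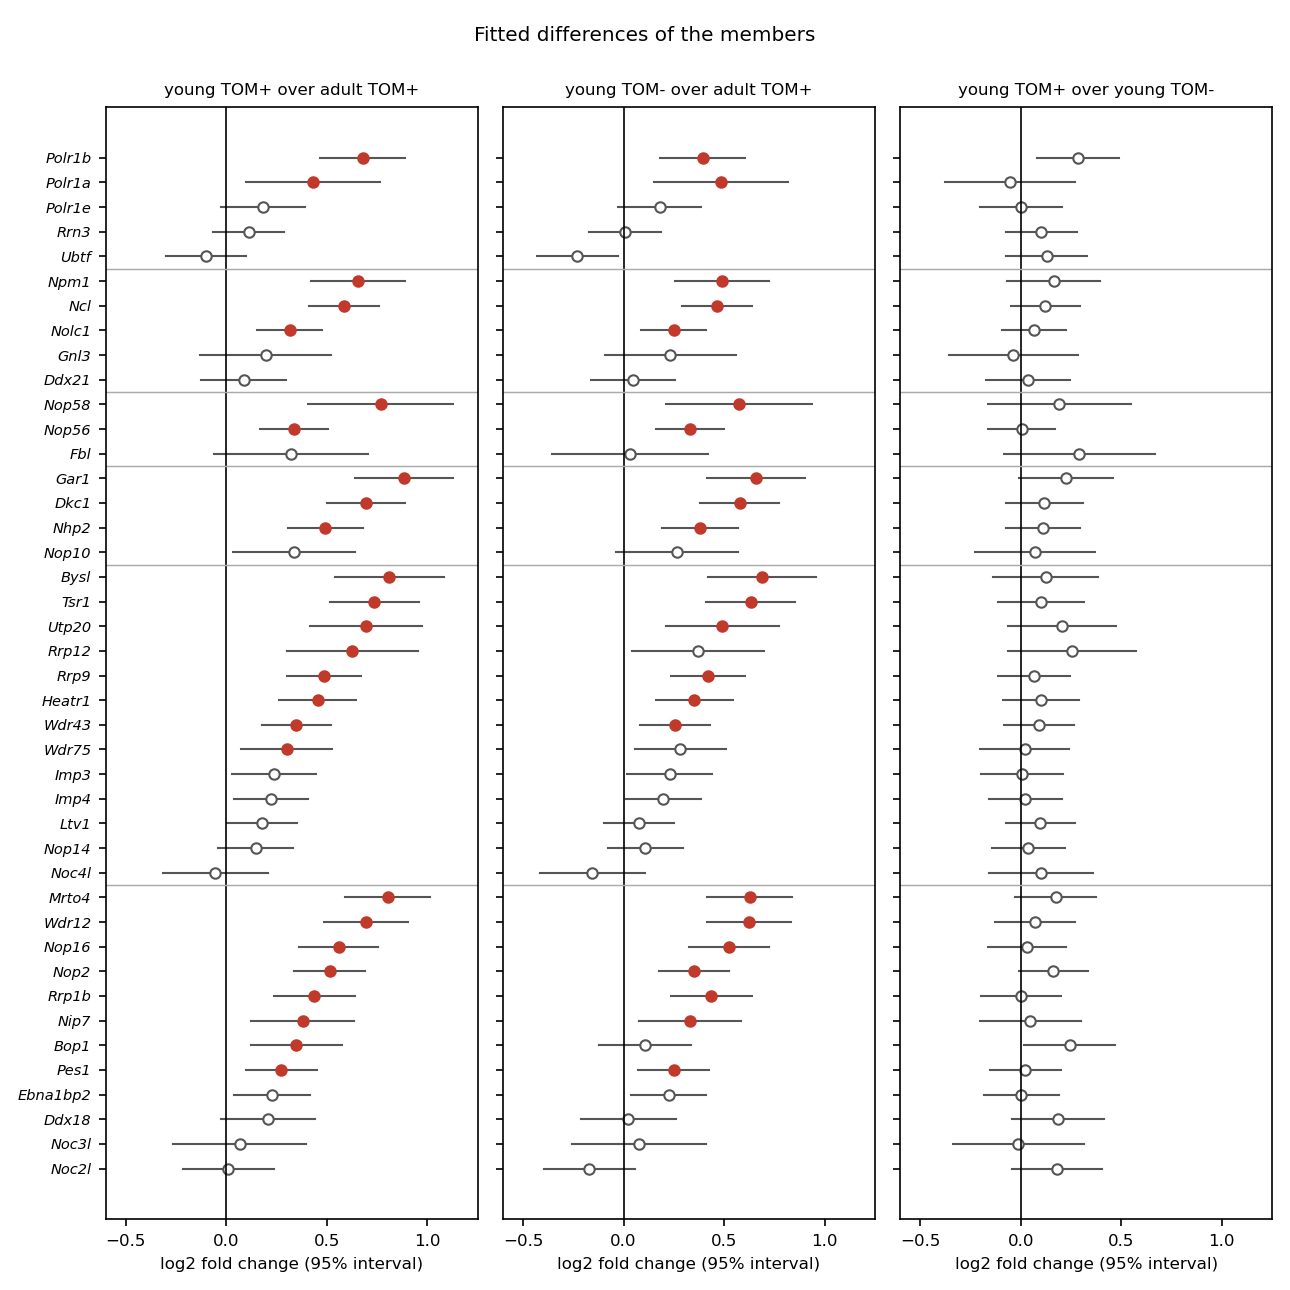
Fitted log2 fold changes of the 42 members with 95% intervals in the 3 comparisons, ordered by role and by the first comparison. Filled points have an adjusted p under 0.05 (edgeR), 26, 23 and 0 members from left to right, and the intervals of the right panel lie nearer to 0.

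Young TOM- DC2 were compared with adult TOM+ cDC2 to place the unlabelled young cells beside the same adult libraries. Both comparisons with adult cells share those 3 libraries, so their results are not independent. In young TOM- DC2, 23 members were higher and 0 lower by edgeR, where 19.4% of all genes were higher and 16.9% lower. Ubtf was the member that had a lower value at an unadjusted p under 0.05, and DESeq2 called it lower. None of the members and 11.3% of all genes passed with a log2FC beyond 1, with 0 members by DESeq2 too. The median log2FC was 0.31 (0.07 for all genes), and 28 members had all young TOM- libraries above all adult libraries, a pattern of 26.1% of all genes. Library totals gave 36 members higher, where 34.7% of all genes were higher, and moved the share of all calls that were higher from 53.5% to 77.3%.

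The members with the largest log2FC here were Bysl, Gar1 and Tsr1. Bysl had 35.5, 39.8 and 40.9 CPM in young TOM- DC2, and all 3 lay above the adult libraries (log2FC 0.69, SE 0.12, adjusted p = 0.000975, edgeR). Gar1 had 33.7, 42.8 and 42.9 CPM (log2FC 0.66, SE 0.11, adjusted p = 0.000675, edgeR), with replicate 1 the lowest. Tsr1 had 36.6, 38.9 and 39.3 CPM against 25.2, 21.7 and 26.9 CPM in adult TOM+ cDC2 (log2FC 0.63, SE 0.10, adjusted p = 0.000438, edgeR). The lowest log2FC among the called members were those of Wdr43, Pes1 and Nolc1. Wdr43 had 128, 140 and 133 CPM in young TOM- DC2 against 113, 104 and 119 CPM in adult TOM+ cDC2 (log2FC 0.26, SE 0.08, adjusted p = 0.0237, edgeR). Pes1, at 97.9, 105 and 114 CPM, gave 0.25 (SE 0.08, adjusted p = 0.0304, edgeR), and Nolc1, at 144, 150 and 158 CPM, gave 0.25 (SE 0.07, adjusted p = 0.0205, edgeR). The calls of Wdr43, Pes1 and Nolc1 were lost in 6, 7 and 3 of the 19 alternatives.

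By role, 2 of 5 genes of RNA polymerase I transcription, 3 of 5 abundant nucleolar proteins, 2 of 3 box C/D proteins, 3 of 4 box H/ACA proteins, 6 of 13 small subunit factors and 7 of 12 large subunit factors were higher in young TOM- DC2. Rrp12 (log2FC 0.37, adjusted p = 0.074), Wdr75 (0.28, adjusted p = 0.0515) and Bop1 (0.10, adjusted p = 0.465) missed the threshold of edgeR's test here. Ubtf had the lowest log2FC of the 42, -0.23 (95% interval -0.43 to -0.03, adjusted p = 0.0689, edgeR). Its 3 young TOM- libraries, at 138, 124 and 126 CPM, overlapped the adult range of 136 to 161 CPM by 1 library, at 138 CPM.

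The third comparison set labelled against unlabelled cells of the same age. No member differed between young TOM+ cDC2 and young TOM- DC2 at an adjusted p under 0.05: 0 were higher and 0 lower by edgeR's test, and 0 by DESeq2 and by limma. In all genes 0.125% were higher, 1.47% lower and 1.18% called beyond 2-fold, and 0 members were beyond 2-fold. At an unadjusted p under 0.05, 2 members were higher and 0 lower, both by edgeR and by DESeq2, while 9.38% of all genes had such a p by edgeR in either direction. By edgeR they were Polr1b, at a log2FC of 0.28 (95% interval 0.08 to 0.49, adjusted p = 0.249, edgeR), and Bop1, at 0.24 (0.02 to 0.47, adjusted p = 0.465, edgeR). The differences were small but mostly of one sign, with 39 of 42 log2FC above 0, a median of 0.10 (0.00 for all genes) and a range from -0.05 (Polr1a) to 0.29 (Fbl). In 11 members all young TOM+ libraries lay above all young TOM- libraries, as in 7.36% of all genes.

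The young libraries carry a number in their deposited names that TOM+ and TOM- libraries share, and libraries with the same number deviated together over all genes (r of 0.50, 0.18 and 0.33 for the numbers 81, 91 and 92). Young TOM+ replicate 3 and young TOM- replicate 2, whose numbers differ, also did, with an r of 0.19. The other young pairs with different numbers lay between -0.41 and 0.05, so the pairing is least clear for the number 91. When the 6 young libraries were fitted alone with that number as a block, an analysis added after seeing the data, 8 of 42 members were higher in young TOM+ cDC2 and 0 lower. In this paired fit 5.12% of all genes were higher and 6.71% lower. With the block in the fit of all 9 libraries, 1 member, Bop1, passed, where 2.23% of all genes were higher. The 8 members were Polr1b, Rrp12, Bop1, Gar1, Nop58, Noc2l, Npm1 and Ncl, and each was higher in TOM+ cells in 3 of 3 pairs. In all, 26 members were higher in 3 of 3 pairs, as were 21.7% of all genes.

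Bop1, a scaffold of large subunit assembly, had 98.0, 91.8 and 85.5 CPM in young TOM+ cDC2 and 77.1, 71.2 and 84.0 CPM in young TOM- DC2. Its log2FC in the paired fit was 0.24 (SE 0.06, adjusted p = 0.0106, edgeR), and the pair numbered 92 differed by 0.03 alone. Polr1b had the largest paired log2FC of the 8, 0.29 (SE 0.08, adjusted p = 0.014, edgeR), with 0.21, 0.27 and 0.38 in the pairs. For Ncl the pairs were close together, at 0.11, 0.12 and 0.14, and the paired log2FC of 0.12 (SE 0.04, adjusted p = 0.0366, edgeR) was the smallest of the 8. Noc2l passed in this fit at 0.18 (SE 0.05, adjusted p = 0.0233, edgeR), while it did not pass the test against adult cells in either young group. The remaining paired log2FC called were 0.26 for Rrp12, 0.23 for Gar1, 0.20 for Nop58 and 0.16 for Npm1.

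**Figure D4:**
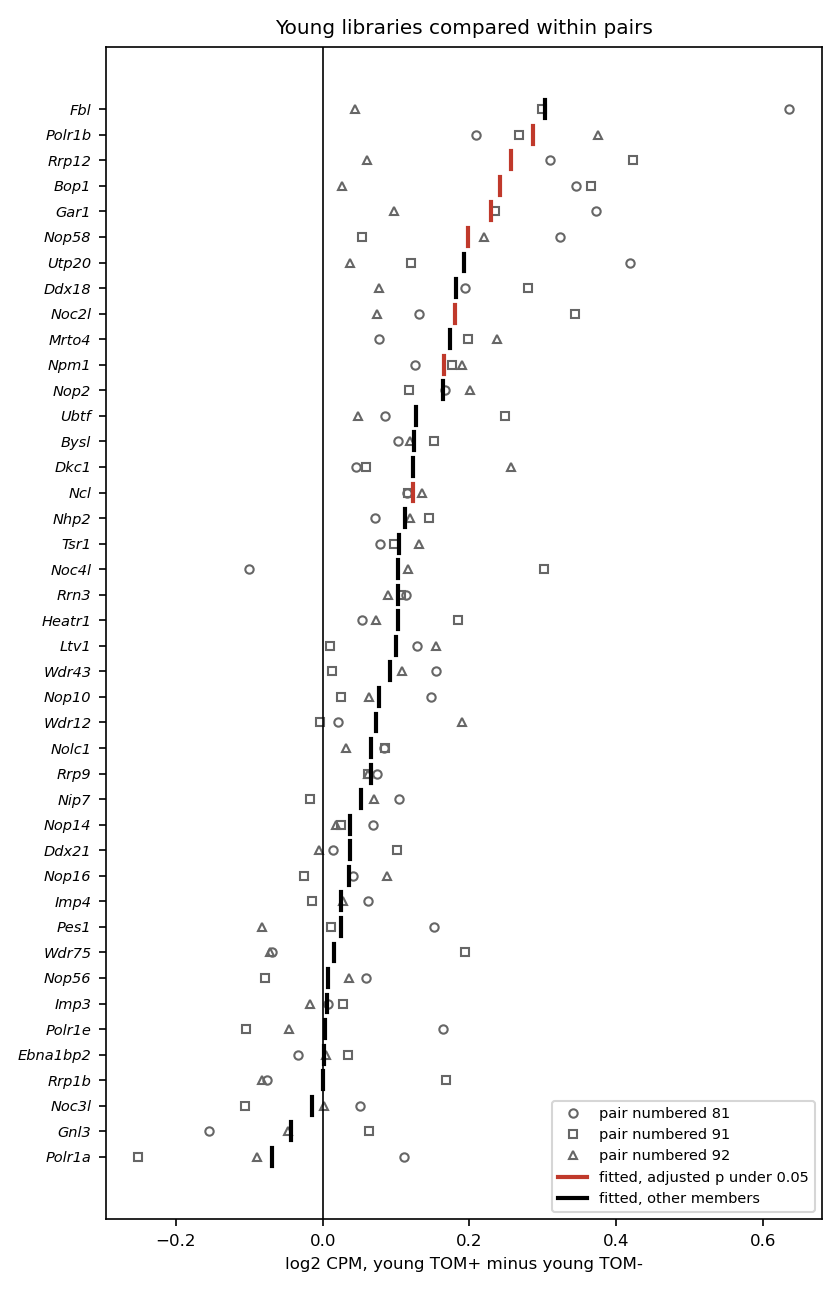
Difference in log2 CPM between the young TOM+ and the young TOM- library of the same number, 1 symbol per pair, for each of the 42 members. Vertical dashes give the fitted log2FC of the paired fit, red for the 8 members with an adjusted p under 0.05 (edgeR), and 26 members have all 3 symbols to the right of 0.

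Other genes of the same pathway, 135 listed and 134 tested, were called in both directions. Against adult TOM+ cDC2, 59 were higher and 6 lower in young TOM+ cDC2, with a median log2FC of 0.26. Of all genes, 21% were higher and 19.5% lower there, with a median of 0.05. In young TOM- DC2, 40 were higher and 7 lower, with a median of 0.18. Of all genes, 19.4% were higher and 16.9% lower in that comparison, with a median of 0.07. Between the young groups 0 were called by edgeR and by DESeq2, and 7 were higher and 0 lower at an unadjusted p under 0.05. The paired fit called 12 higher and 0 lower, where 5.12% of all genes were higher and 6.71% lower. Leaving out genes whose mean count was under 50, the largest changes were those of Rrs1 (large subunit assembly), with a log2FC of 0.94 (SE 0.10, adjusted p = 1.34e-05, edgeR) in young TOM+ cDC2, Nol6 (small subunit assembly), with 0.93 (SE 0.14, adjusted p = 0.000288, edgeR), and Tma16, with 0.92 (SE 0.20, adjusted p = 0.00326, edgeR). In young TOM- DC2 they were Tma16 (0.93, SE 0.20, adjusted p = 0.00346, edgeR), Cd3eap, a subunit of RNA polymerase I (0.81, SE 0.14, adjusted p = 0.000743, edgeR), and Polr2l, a subunit shared by RNA polymerases (0.77, SE 0.23, adjusted p = 0.0215, edgeR). By kind, calls in young TOM+ cDC2 were 17 higher and 0 lower of 40 small subunit factors, 20 and 4 of 46 large subunit factors, 5 and 0 of 10 snoRNP assembly factors, 9 and 0 of 13 exosome genes, 3 and 1 of 10 RNase MRP and P proteins, and 5 and 1 of 15 further RNA polymerase I genes.

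The cytosolic ribosomal proteins are the protein component of the ribosome itself. Of 78 tested, 16 were higher and 2 lower in young TOM+ cDC2 than in adult TOM+ cDC2, and 11 were higher and 1 lower in young TOM- DC2. Of all genes, 21% were higher and 19.5% lower in young TOM+ cDC2, and 19.4% and 16.9% in young TOM- DC2. With the main counts the higher calls did not stand above this background, while few genes were lower. In young TOM+ against adult cells the median log2FC was 0.20, against 0.05 for all genes. In 33 of the 78 all young TOM+ libraries lay above all adult libraries, a pattern of 27.1% of all genes. Between the young groups 0 were called by edgeR or DESeq2, and 0 had an unadjusted p under 0.05. These genes depend on the counting and scaling more than the members do. With expected counts 38 of 79 were higher and 0 lower in young TOM+ cDC2, where 20% of all genes were higher. limma on log2(TPM + 1) called 68 of 78 higher and 0 lower, where 28.2% of all genes were higher. Library totals called 44 of 78 higher and 1 lower, where 33.1% of all genes were higher. In these settings the calls did stand above the background. The summed level of the ribosomal proteins was 60570 to 62790 TPM in young TOM+, 59660 to 63550 TPM in young TOM- and 45660 to 50730 TPM in adult TOM+ libraries.

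MYC itself, the transcription factor that drives this pathway in many cells, was higher in young cells. Myc had 54.2, 41.7 and 39.6 TPM in young TOM+, 56.2, 42.7 and 43.8 TPM in young TOM- and 33.9, 33.6 and 30.1 TPM in adult TOM+ libraries, with replicate 1 the highest of either young group and no overlap with adult cells. The means were 45.2 ± 7.88 TPM in young TOM+ cDC2, 47.5 ± 7.48 TPM in young TOM- DC2 and 32.5 ± 2.12 TPM in adult TOM+ cDC2. The log2FC against adult cells was 0.34 (SE 0.12, adjusted p = 0.0365, edgeR) for young TOM+ and 0.38 (SE 0.12, adjusted p = 0.0235, edgeR) for young TOM- cells, and with expected counts 0 genes of the MYC network were higher in young TOM+ cDC2. Mycl, the family member that dendritic cells are known to express, had 79.2 ± 4.85, 78.4 ± 11.1 and 54.7 ± 11.8 TPM, with a log2FC of 0.40 against adult cells that did not pass (adjusted p = 0.0518, edgeR). Mycn had at most 0.17 TPM in any library, and Max, the shared partner of these factors, had a log2FC of -0.44 (adjusted p = 0.25, edgeR). Mxd1 and Mxd4, which compete with MYC for Max, were lower in young TOM+ cDC2, by log2FC of -0.82 (SE 0.12, adjusted p = 0.000164, edgeR) and -1.48 (SE 0.21, adjusted p = 0.000134, edgeR). Mxd3, of the same family, was higher, by 0.52 (SE 0.19, adjusted p = 0.0427, edgeR). Over the 10 genes of this network, 2 were higher and 3 lower in young TOM+ cDC2, where 21% of all genes were higher and 19.5% lower. In young TOM- DC2, 1 was higher and 2 lower, where 19.4% of all genes were higher and 16.9% lower. These counts are close to those shares. Between the young groups 0 were called by edgeR or DESeq2, with 0 at an unadjusted p under 0.05.

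Replication and mitosis genes moved with the members in the comparisons with adult cells, and by more. Of 20 genes, 19 were higher and 0 lower in each young group, with a median log2FC of 1.35 for young TOM+ and 1.12 for young TOM- cells. Of all genes, 21% were higher in young TOM+ and 19.4% in young TOM- cells. Top2a stood at 111 ± 10.2, 101 ± 11.5 and 40.0 ± 7.85 TPM in young TOM+, young TOM- and adult TOM+ cells, and Mki67 at 31.5 ± 5.38, 28.9 ± 4.49 and 13.0 ± 1.995 TPM. Pcna, at 374 ± 25.0, 372 ± 25.3 and 270 ± 13.7 TPM, was the gene that did not pass in young TOM+ cells (log2FC 0.26, adjusted p = 0.071, edgeR). Between the young groups 0 were called by edgeR and by DESeq2, with 2 at an unadjusted p under 0.05 by edgeR and 3 by DESeq2. The paired fit called 15 of these genes higher and 0 lower, where 5.12% of all genes were higher. Their summed level was 2786 to 2922, 2547 to 2642 and 1124 to 1369 TPM in the 3 groups. The part of cell division in the members' values was not tested.

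Markers of other cells moved with the comparisons as well. Of the 14 cDC2 genes, 11 were lower and 2 higher in young TOM+ than in adult TOM+ cDC2. The most abundant of them, Cd74, stood at 44850 ± 2244 against 63200 ± 1500 TPM, and Esam, which had the largest drop of the list and is named after its values were seen, at 18.96 ± 6.99 against 80.0 ± 9.49 TPM. Il7r, the most abundant of the 5 ILC3 markers, had 3.27 ± 0.370, 5.19 ± 0.410 and 3.91 ± 0.882 TPM in young TOM+, young TOM- and adult TOM+ cells, and Il1r1, named after its values were seen, had 0.24 ± 0.0819, 3.91 ± 0.304 and 0.0867 ± 0.0252 TPM. Cadm1, the most abundant of 6 cDC1 markers, had 19.7 ± 2.13, 19.7 ± 1.93 and 6.54 ± 0.418 TPM in young TOM+, young TOM- and adult TOM+ cells, and Cd79b, the most abundant of 6 B cell markers, had 62.1 ± 4.82, 64.7 ± 3.05 and 30.6 ± 5.15 TPM. These lists were split: by edgeR, 1 of the 6 cDC1 markers was higher and 1 lower in young TOM+ than in adult TOM+ cDC2. Of 5 B cell markers tested, 1 was higher and 2 were lower there. Between young TOM+ and young TOM- cells, all 5 had a log2FC below 0, with a median of -1.59. There 1 was called lower by edgeR, as were 1.47% of all genes. The monocyte gene Csf1r stood at 241 ± 14.7, 206 ± 20.9 and 169 ± 12.7 TPM. Of the 6 monocyte and macrophage markers tested, 4 had a log2FC below 0 between young TOM+ and young TOM- cells, with a median of -0.51 and 0 called by edgeR (4 at an unadjusted p under 0.05), and C1qa, named after its values were seen, had 27.9 ± 4.29, 40.8 ± 4.78 and 21.4 ± 8.24 TPM. In the same order of groups, the pDC gene Bst2 stood at 81.7 ± 4.995, 90.5 ± 2.99 and 118 ± 20.5 TPM, and the T cell gene Cd5 at 25.2 ± 2.89, 35.3 ± 2.24 and 26.3 ± 5.22 TPM. Of 5 pDC markers tested, 3 had a log2FC above 0 and 2 below 0 between young TOM+ and young TOM- cells. Of 5 T cell markers tested, 1 was above 0 and 4 below 0 there. Among erythroid genes Hba-a1 stood at 16.7 ± 14.5, 165 ± 242 and 6.76 ± 5.58 TPM, and S100a8 of neutrophils had 2.56 ± 4.43 TPM in young TOM- DC2 and was below 1 TPM in the other groups. The part of these cells in the members' values was not tested. Without young TOM- DC2 replicate 1, 0 members were called between the young groups by edgeR, with a median log2FC of 0.07. In that fit 25 members were higher and 0 lower in young TOM- DC2 than in adult TOM+ cDC2, where 18.4% of all genes were higher.

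Several members are hosts of small nucleolar RNAs, the guides that the snoRNPs carry. In the GENCODE annotation of GRCm38, 7 of 42 members (16.7%) had an annotated snoRNA gene within their bounds on the same strand, against 1.68% of the protein-coding genes tested. They were Ncl (chromosome 1, 86344719 to 86359400, 3 snoRNAs), Gnl3 (chromosome 14, 31012433 to 31019152, 3), Nop56 (chromosome 2, 130274430 to 130279313, 5), Nop58 (chromosome 1, 59684971 to 59719044, 4), Dkc1 (chromosome X, 75095854 to 75109777, 1), Wdr43 (chromosome 17, 71615895 to 71659031, 3) and Tsr1 (chromosome 11, 74898071 to 74909342, 2). The snoRNAs themselves were not measured here. Across the 9 libraries the members varied together, with a median Pearson r of 0.85 over 861 pairs of genes. After removing the group means the median was 0.13, and both values are descriptions over libraries that share depth and cell source.

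The promoters of the members were searched for CACGTG, the E-box that MYC and MAX bind, which reads the same on both strands. RefSeq windows of 300 bases (250 before and 50 after the start, GRCm38.p6) were found for 38 of 42 members, and 8 of them (21.1%) held the motif, against 8.09% of the 27025 genes with a window and 11.3% of those tested here. The median share of G and C was 59.3% in the members' windows, 52.7% in all and 60.3% in those of genes tested. Of the 8, Nop2, Imp4 and Rrn3 held it before the start, and Wdr43, Utp20, Ltv1, Tsr1 and Pes1 only after it. These stretches around the motif, in capitals, are shown because they belong to 1 member that was higher in both young groups (Nop2) and to 2 that did not pass in either (Imp4, Rrn3), written 5′ to 3′ on the strand of the gene:
Nop2, chr6:125131796-125131855, plus strand: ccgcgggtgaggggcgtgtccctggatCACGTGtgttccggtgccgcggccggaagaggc
Imp4, chr1:34439681-34439740, plus strand: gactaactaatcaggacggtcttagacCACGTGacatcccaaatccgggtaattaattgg
Rrn3, chr16:13780624-13780683, plus strand: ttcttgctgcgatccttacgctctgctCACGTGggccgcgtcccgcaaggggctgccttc
The motif begins 60, 121 and 48 bases before the start of Nop2, Imp4 and Rrn3, and Rrn3 holds another copy at 215 bases. Gar1, Bysl and Mrto4, the members with the largest log2FC of young over adult TOM+ cDC2, hold none in their windows. Tsr1, among the 3 largest in young TOM- DC2, holds it after the start. A match is a description of the letters and says nothing about binding.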

How the data were processed

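Bulk RNA-seq of sorted cells was deposited as 1 table of STAR gene counts and 1 of RSEM results per library (9 libraries). By the authors' methods and the processing notes, SMART-seq cDNA was sequenced as single-end reads and aligned to mm10 with STAR. The authors deposited counts per gene (the unstranded column, used here), RSEM expected counts and RSEM TPM. Reads not assigned to a gene (26.1% to 31.6% of a library, 10.4% to 13.4% mapping to several places) were left out. The 14452 genes whose mean count reached 1 were tested with edgeR 4.0.16 (TMM, glmQLFit and glmQLFTest, all 9 libraries, 3 groups, R 4.3.3) with Benjamini-Hochberg adjustment. Alternatives used DESeq2 1.42.0, limma 3.58.1 on log2(TPM + 1) or log2(TPM + 0.1), expected counts rounded to whole numbers, other scalings and filters, and each library left out. The scripts were tested on simulated data.

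The members and lists were chosen with earlier results of these data known. Values are given in full for members beyond 2-fold, the 3 highest and 3 lowest log2FC called per comparison, and in each role the member with the highest TPM and the one with the largest change, and further for members that bear on a result. Of the other pathway genes, the 3 with the largest change at a mean count of 50 or more are named, with Myc, Mycn, Mycl, Max, Mki67, Pcna and Top2a, and the most abundant gene of each marker list. One marker gene is not reported here and was left out of its list. The listed symbols Bud23, Trac, Adgre1 and Ly6g were not matched. The numbers in the deposited names were taken to pair the young libraries because the deviations of all 3 same-numbered pairs correlated by over 0.1. The 4 same-numbered pairs of young and adult libraries did not (r of -0.002 to 0.041). Young TOM+ replicate 3 and young TOM- replicate 2, whose numbers differ, also correlated by over 0.1 (r of 0.19). Libraries of a group differed by more than counting noise (mean chi-square per gene 8.74 to 23.0). Coordinates are those of GRCm38, and promoter windows are from RefSeq.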

Additional observations from a re-analysis of the deposited data

How the results depend on the processing

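Of the 26 members higher in young than in adult TOM+ cDC2, 21 passed under all 19 alternatives, and Bop1, Nip7, Pes1, Polr1a and Wdr75 did not. Of the 23 higher in young TOM- DC2, 17 passed under all, and Nip7, Nolc1, Nop58, Pes1, Polr1a and Wdr43 did not. No log2FC of a called member turned its direction. Leaving out 1 library gave 23 to 28 members higher and 0 lower with medians of 0.33 to 0.40 for young TOM+ against adult, 19 to 25 higher and 0 to 1 lower with medians of 0.25 to 0.33 for young TOM- against adult, and 0 called with medians of 0.07 to 0.11 between the young groups. In these fits 16.75% to 21.57% of all genes were higher in young TOM+ and 15.27% to 19.91% in young TOM- than in adult cells. Library totals raised the medians against adult to 0.55 and 0.52, called 36 members and 34.7% of all genes higher in young TOM- DC2 and put 2 members beyond 2-fold in young TOM+ cDC2. limma on log2(TPM + 1) gave medians of 0.48 and 0.46, and on log2(TPM + 0.1) 0.49 and 0.47 with 1 member beyond 2-fold in young TOM+ cDC2. DESeq2 size factors in edgeR, DESeq2, an average count of at least 10 and expected counts each called 1 member lower in young TOM- DC2. Each of these settings called between 2607 and 2685 of all genes lower there. A further setting used the replicate number as a block in all 9 libraries. It assumes a pairing of young and adult libraries that the correlations do not show. The median for young TOM+ against adult was then 0.40, with 30 members higher and 1 lower. Of all 14452 genes, 24.6% were higher and 3361 genes were lower. For young TOM- against adult, 28 members were higher and 3 lower, where 23.6% of all genes were higher and 3129 genes lower. Between the young groups 1 member was higher, as were 2.23% of all genes. The block in the 6 young libraries alone, chosen after seeing the data, called 8 members and 5.12% of all genes higher. The causes of these differences were not tested. With 3 libraries a group, differences between the young groups of the size seen here (median 0.10 on the log2 scale) were close to their standard errors in the fit without pairs.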
